A study of Mus musculus with 7 samples.

Results

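Ucma, Mgp, Gas6, Ggcx and Vkorc1 are 5 of the 52459 gene names counted in mouse articular chondrocytes, and were taken by name: 3 encode proteins that carry the vitamin K-dependent amino acid Gla, and 2 encode enzymes that make it. Primary chondrocytes from the femoral head were cultured for 24 h with TGFβ1 at 5 ng/ml (2 libraries, replicates 1 and 3), with BMP2 at 100 ng/ml (3 libraries, replicates 1, 2 and 3) or with vehicle (2 libraries, replicates 1 and 2), all in medium with serum. TGFβ1 and BMP2 are ligands of 1 protein family that act mainly through different SMAD proteins. The labels give no strain, sex, age or genotype of the mice and do not say whether replicates came from separate animals or cultures, so a p-value measures only the spread between these libraries. Each was a bulk RNA library, and in such data fewer cells of a type and less RNA per cell cannot be told apart.

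Gla is made from glutamate inside the secretory pathway: the carboxylase GGCX adds a carboxyl group to glutamates of a protein while it oxidises reduced vitamin K, and the reductase VKORC1, the target of warfarin, returns the oxidised vitamin to use. Gla residues bind calcium. Matrix Gla protein, made by Mgp, keeps cartilage and artery walls from mineralising, UCMA (also called Gla-rich protein) is secreted by chondrocytes, and GAS6 is a soluble ligand of the receptors TYRO3, AXL and MERTK. RNA counts measure the transcripts and say nothing of how far the proteins were carboxylated.

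Coding stretches of the 2 small cartilage Gla proteins are shown because their messages moved most between the ligands and because their short length bears on how they were measured. They come from the principal GENCODE M21 transcripts of the mm10 build, 5′ to 3′, codons 39 to 138 for Ucma (the last before the stop codon) and codons 1 to 100 for Mgp, each 300 bases, with the glutamate codons in capitals; these are the codons of the residues from which Gla can be made, and which of them are carboxylated was not measured.
Ucma: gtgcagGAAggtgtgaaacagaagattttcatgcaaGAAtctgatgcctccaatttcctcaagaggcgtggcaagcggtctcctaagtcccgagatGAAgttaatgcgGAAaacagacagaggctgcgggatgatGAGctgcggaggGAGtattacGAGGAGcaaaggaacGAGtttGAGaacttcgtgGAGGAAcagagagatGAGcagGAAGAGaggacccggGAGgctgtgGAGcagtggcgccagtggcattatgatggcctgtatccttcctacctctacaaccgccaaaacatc
Mgp: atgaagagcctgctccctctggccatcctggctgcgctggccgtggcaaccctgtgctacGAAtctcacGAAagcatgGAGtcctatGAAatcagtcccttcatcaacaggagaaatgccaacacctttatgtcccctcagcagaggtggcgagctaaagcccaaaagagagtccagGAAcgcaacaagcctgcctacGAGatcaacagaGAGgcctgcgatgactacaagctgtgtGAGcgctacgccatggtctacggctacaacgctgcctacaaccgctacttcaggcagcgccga
The whole Ucma frame holds 19 glutamate codons among 138 codons (13.8%), 17 of them in the stretch shown, and that of Mgp holds 8 among 104 (7.69%), all of them shown. Ucma lies on the plus strand at chr2:4976122-4985748, and its transcript of 5 exons is 847 nt long, with 417 nt coding, 101 nt of 5′ UTR and 329 nt of 3′ UTR. Mgp lies on the minus strand at chr6:136872435-136875823, and its transcript of 4 exons is 617 nt long, with 315 nt coding.

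The other genes differ in length. Vkorc1 (minus strand, chr7:127893063-127895617, 3 exons) has a transcript of 748 nt, as short as those of Ucma and Mgp. Gas6 (minus strand, chr8:13465374-13494490, 15 exons) has one of 2548 nt and Ggcx (plus strand, chr6:72414308-72430712, 15 exons) one of 2929 nt. In the annotation 47.7% of the exon bases of Vkorc1 are shared on the same strand with the predicted gene Gm21974, which had 0 counts in each of the 7 libraries; no source used here gives how the counting treated reads on shared bases, so the level of Vkorc1 is uncertain. Of the exon bases of Gas6, 1.33% overlap the opposite strand gene Tmem255b, which had at most 3 counts in any library.

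The 7 libraries held from 16271793 to 18047765 counts with TGFβ1, from 6747997 to 10686885 with BMP2 and from 6885056 to 7387051 with vehicle. Chondrocyte markers were present in all of them: the 10 markers summed to 35516 to 41250.0 CPM (counts relative to the TMM-scaled library size) with TGFβ1, 48148 to 54476 with BMP2 and 56129 to 56359 with vehicle. Of these 10, 8 fell with TGFβ1 against vehicle (25.8% of all tested genes fell), while 2 fell and 1 rose with BMP2 (6.15% and 5.33% of all tested genes). The endothelial list summed to at most 1.99 CPM in any library with its defining gene Cdh5 at 0 in all 7, and the leukocyte list to at most 12.6 CPM. Osteoblast markers summed to 1579.7 to 1759 CPM with TGFβ1, 809 to 869 with BMP2 and 892 to 908 with vehicle. The collagen gene Col1a1 made up most of that sum (1462 ± 148 CPM with TGFβ1, 629.6 ± 74.7 with BMP2 and 659 ± 16.0 with vehicle; SD, n = 2, 3 and 2). Of the 5 osteoblast markers tested 1 rose and 1 fell with TGFβ1 as measured (30.4% and 25.8% of all tested genes did). After the length offset described below 1 rose and 3 fell (25.4% and 23.7% of all tested genes did). The falls after the offset include Bglap and Bglap2. As measured, their means were 29.0 and 17.5 CPM with TGFβ1 and 26.4 and 10.3 with vehicle. The smooth muscle and pericyte list summed to 380.0 to 386 CPM with TGFβ1, 308 to 361 with BMP2 and 214 to 219.7 with vehicle. Most of that sum was Cspg4, with means of 322 CPM with TGFβ1, 309 with BMP2 and 191 with vehicle. Group means of Myh11, Cnn1, Rgs5 and Notch3 were at most 1.07 CPM. Of its 3 tested genes 2 rose with TGFβ1 against vehicle, where 30.4% of all tested genes rose. The adipocyte list summed to 49.9 to 57.0 CPM with TGFβ1, 8.58 to 17.9 with BMP2 and 4.81 to 8.37 with vehicle. Its 1 tested gene rose with TGFβ1 as measured and after the offset (30.4% and 25.4% of all tested genes rose). Most of that sum was Fabp4, with means of 52.8 CPM with TGFβ1, 14.4 with BMP2 and 6.41 with vehicle. Its transcript is 896 nt long, which bears on the length trend described below. Group means of Adipoq, Plin1 and Lep were at most 0.567 CPM. The fibroblast and synovium list, mostly Col1a2, summed to 918 to 1039 CPM with TGFβ1, 1063 to 1288 with BMP2 and 1055 to 1061 with vehicle. Neither of its 2 tested genes was called against vehicle (56.2% of all tested genes were with TGFβ1 and 11.5% with BMP2). The osteoclast list, mostly Ctsk, summed to 121 to 125 CPM with TGFβ1, 101 to 141 with BMP2 and 89.1 to 94.3 with vehicle. Of its 2 tested genes 1 rose with TGFβ1 as measured, and 0 did after the offset (30.4% and 25.4% of all tested genes rose). The part of cells of other types in the levels below was not tested. No 2 replicates matched within sampling noise, with a chi-square per gene of 40.7 between the TGFβ1 libraries, which were also the deepest, and 4.75 between the vehicle libraries. Among the BMP2 libraries replicate 1 gave 14.4 and 18.5 against replicates 2 and 3, which gave 1.88 between themselves.

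The TGFβ1 libraries also differed from the other 5 by transcript length. Against vehicle the median log2 fold change was 2.86 over the 674 tested genes with transcripts of up to 750 nt, 2.51 over the 505 genes of 750 to 1000 nt, 0.02 over the 2921 genes of 2000 to 3000 nt and −0.57 over the 1019 genes above 7000 nt. Spearman's rho between fold change and length, across genes that are not independent replicates, was −0.426 for TGFβ1 against vehicle and −0.072 for BMP2 against vehicle, where the class medians ran from −0.08 to 0.08. Ribosomal protein genes, which are short, took 6.74 and 6.84% of the counts with TGFβ1, 1.14 to 1.45% with BMP2 and 1.11 and 1.17% with vehicle. The trend falls on both TGFβ1 libraries and on no other, so it and the treatment cannot be told apart. Fold changes are therefore given as measured and, for the 5 genes and for pathway genes whose call differs, also after a length offset. This correction per library uses each gene's deviation from its own mean over the libraries. It removes a smoothed trend of these deviations with transcript length and GC content across all genes. After it the class medians for TGFβ1 against vehicle ran from −0.10 to 0.30. The quartiles of the genes of up to 750 nt were −1.25 and 1.05, so single short genes still varied widely.

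**Figure D1:**
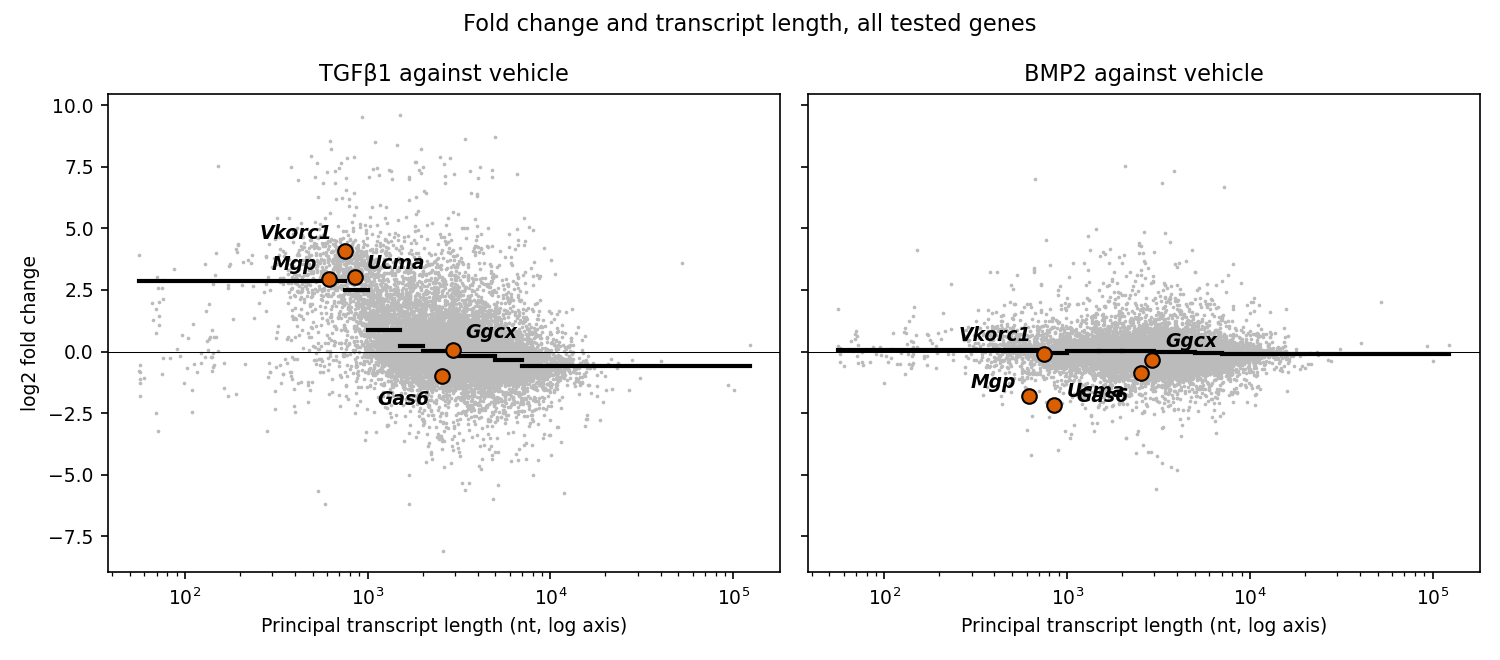
log2 fold change of every tested gene with a known length (grey points, by edgeR) against the length of its principal transcript on a log axis, with the median of each length class as a black bar and the 5 genes in orange, for TGFβ1 against vehicle (left) and BMP2 against vehicle (right). With TGFβ1, Mgp at 2.96 sits near its class median of 2.86; with BMP2, Ucma at −2.19 and Mgp at −1.81 lie below medians close to 0.

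All 5 genes passed the filter on low counts and were tested among 13367. A gene was called where edgeR's quasi-likelihood test gave an adjusted p (Benjamini-Hochberg, over the 13367 genes) under 0.05. By that rule 3 of the 5 rose with TGFβ1 against vehicle (Ucma, Mgp, Vkorc1; 30.4% of all tested genes rose) and 1 fell (Gas6; 25.8% fell). In all, 56.2% of the tested genes passed in this comparison, so a call there is common. The CPM ranges of the groups did not overlap for 4 of the 5 genes, against 80.1% of all tested genes. After the length offset 2 rose (25.4% of all genes) and 1 fell (23.7%), with 49.1% of all genes called in either direction. With BMP2 against vehicle 3 of the 5 fell (Ucma, Mgp, Gas6), where 6.15% of all genes did, and none rose, where 5.33% did. The ranges did not overlap for 4 of the 5, against 44.6% of all genes. After the offset the same 3 fell and none rose, where 6.28% of all genes fell, 6.71% rose and 13.0% passed in either direction. In this comparison 11.5% of all genes passed, 1535 genes, and that number was 981 without BMP2 replicate 3, 671 without vehicle replicate 1 and 557 without vehicle replicate 2; the falls of Ucma, Mgp and Gas6 passed in each of these and in all 25 alternatives run. Of the genes called with TGFβ1 against vehicle 54.1% were higher, and 66.8% when the libraries were scaled on transcripts of at least 2000 nt, which moved the median of all genes by 0.20 on the log2 scale. Both comparisons with vehicle use the same 2 vehicle libraries.

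Ucma had 2649.8 and 1437 CPM in the TGFβ1 libraries, 56.1, 54.4 and 54.3 CPM in the BMP2 libraries and 232 and 269 CPM in the vehicle libraries. The 3 groups did not overlap: TGFβ1 was highest, vehicle in between and BMP2 lowest, and the TGFβ1 replicates lay further apart than those of any other group. The means were 2043 ± 858 CPM with TGFβ1 (SD, n = 2), 54.9 ± 1.03 with BMP2 (SD, n = 3) and 251 ± 26.2 with vehicle (SD, n = 2).

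With BMP2 Ucma fell by 2.19 on the log2 scale (SE 0.21, edgeR adjusted p = 1.40e-04), to 0.219 times the vehicle level. The fall was −2.15 (SE 0.14, edgeR adjusted p = 5.88e-06) after the length offset. Among the 505 tested genes of 750 to 1000 nt, only 5 had a more negative fold change with BMP2. Against vehicle the rise with TGFβ1 was 3.03 (SE 0.25, edgeR adjusted p = 3.17e-06), which 185 of the same 505 genes exceeded. After the length offset 0.62 remained (SE 0.15, edgeR adjusted p = 0.00589), a 1.54-fold difference in place of 8.16-fold. On that scale the class median was 0.30, 210 of the 505 genes exceeded Ucma and 38.8% of the class was called higher. Such a value was therefore common for transcripts of this length. Ucma was called under all 12 offset settings, at 0.40 to 0.83, so its rise passed throughout while its size turned on the offset. TGFβ1 over BMP2 gave 5.22 (SE 0.23, edgeR adjusted p = 1.93e-08), and 2.77 after the offset (SE 0.14, edgeR adjusted p = 3.18e-08); 14 of the 505 genes had a larger difference.

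Mgp had 7647 and 7465 CPM with TGFβ1, 234, 298 and 295 CPM with BMP2, and 1022 and 917 CPM with vehicle. Again the groups did not overlap and kept the order seen for Ucma, here with TGFβ1 replicates close together. Its means were 7556 ± 129 CPM with TGFβ1 (SD, n = 2), 276 ± 35.9 with BMP2 (SD, n = 3) and 969.6 ± 74.4 with vehicle (SD, n = 2).

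With BMP2 the message of this mineralisation inhibitor fell by 1.81 (log2, SE 0.14, edgeR adjusted p = 4.09e-05), and the offset left −1.83 (SE 0.17, edgeR adjusted p = 4.31e-05). Only 4 of the 674 genes with transcripts of up to 750 nt had a more negative value. With TGFβ1 Mgp stood 2.96 above vehicle (SE 0.16, edgeR adjusted p = 1.28e-07), but 318 of the 674 genes of its length class stood higher. The length offset took this to 0.12 (SE 0.19, edgeR adjusted p = 0.617), so the call was lost, and leaving out single libraries under the offset gave 0.00 to 0.34, none of them called. The size turned on which length was used: the gene length in the deposited file is 1187 nt, since it also covers a transcript with a retained intron, and an offset on those lengths left 1.34, which passed the test (adjusted p = 2.13e-04, the lowest over the 12 offset settings, whose highest was 0.991). The class position turned on it too. By deposited length Mgp lies in the class of 1000 to 1500 nt. There the median with TGFβ1 as measured was 1.39, and 160 of 703 genes stood above Mgp. Between the ligands Mgp passed with and without the offset, at 4.78 (SE 0.15, edgeR adjusted p = 2.18e-09) and 1.95 (SE 0.17, edgeR adjusted p = 2.15e-06) for TGFβ1 over BMP2.

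**Figure D2:**
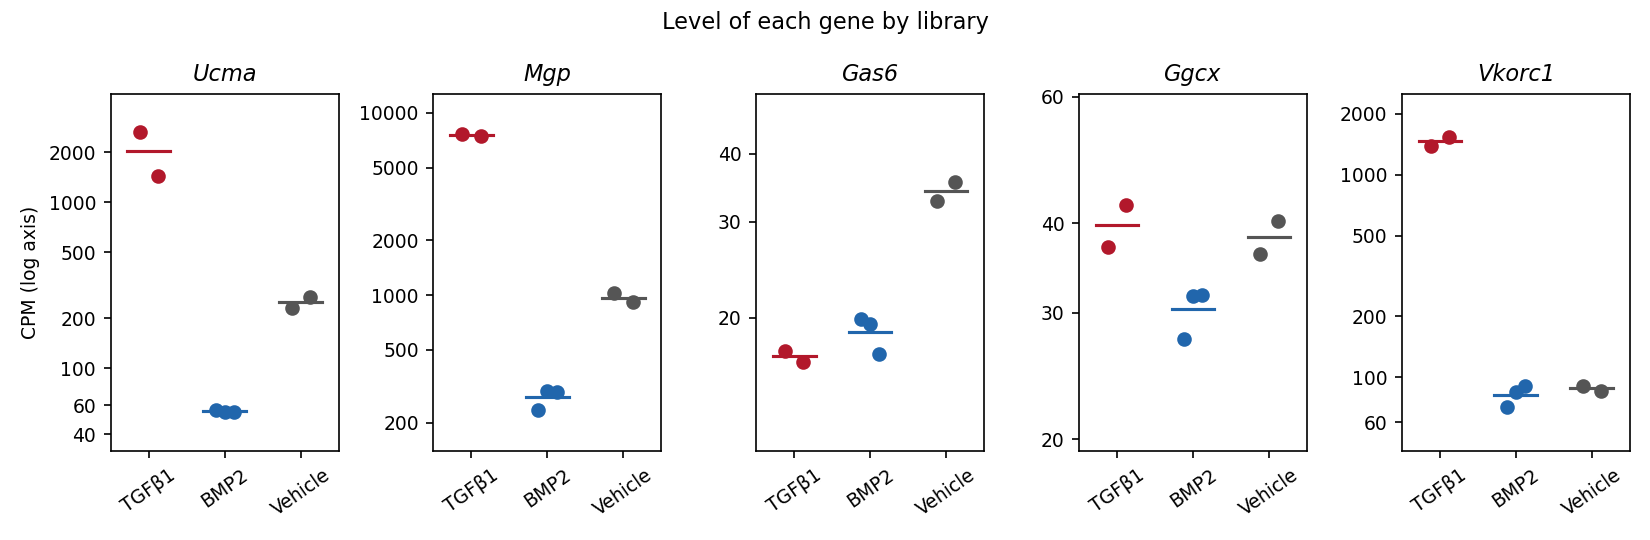
CPM of each gene (log axis, own scale per panel) in the TGFβ1, BMP2 and vehicle libraries, with a point per library and a bar at the group mean. Ucma and Mgp are highest with TGFβ1 and lowest with BMP2; Gas6 is highest with vehicle (32.8 and 35.5 CPM); Ggcx spans 27.6 to 42.4 CPM over all 7 libraries.

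Ucma and Mgp took 0.776 and 0.717% of all counts together with TGFβ1, 0.0317, 0.0394 and 0.0380% with BMP2, and 0.136 and 0.134% with vehicle. Their ratio to each other varied less than either gene: there were 0.347 and 0.192 Ucma counts per Mgp count with TGFβ1, 0.239, 0.182 and 0.184 with BMP2, and 0.227 and 0.293 with vehicle. These ranges overlap between the 3 groups. Per kilobase of principal transcript Mgp stood above Ucma in every group, at 12247 ± 208 against 2412 ± 1013 CPM per kb with TGFβ1 (SD, n = 2), 447 ± 58.3 against 64.8 ± 1.22 with BMP2 (SD, n = 3) and 1571 ± 121 against 296 ± 30.9 with vehicle (SD, n = 2). By this measure Mgp was the 10th, 63rd and 14th highest of 13229 genes with TGFβ1, BMP2 and vehicle, and Ucma the 78th, 663rd and 88th. On the deposited length of 1187 nt Mgp had 817 CPM per kb with vehicle, and ranks on deposited lengths were not computed. The ranks with TGFβ1 also carry the length trend of those libraries.

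Gas6 had 17.4 and 16.6 CPM with TGFβ1, 19.9, 19.5 and 17.2 CPM with BMP2, and 32.8 and 35.5 CPM with vehicle. Both ligands lay below both vehicle libraries, and TGFβ1 and BMP2 overlapped. The message of this receptor ligand fell by 1.00 with TGFβ1 (log2, SE 0.13, edgeR adjusted p = 1.12e-04) and fell by 0.86 with BMP2 (SE 0.12, edgeR adjusted p = 0.00143). Its transcript lies in a length class with medians of 0.02 in both comparisons, and 280 and 182 of the 2921 genes there had a more negative value. After the offset the falls were −1.23 with TGFβ1 (SE 0.13, edgeR adjusted p = 1.24e-05) and −0.82 with BMP2 (SE 0.12, edgeR adjusted p = 8.12e-04). Between the ligands no difference passed as measured (−0.15, SE 0.12, edgeR adjusted p = 0.333 for TGFβ1 over BMP2), whereas −0.41 passed after the offset (SE 0.12, edgeR adjusted p = 0.0118); scaling on long transcripts alone gave 0.04.

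Ggcx, the carboxylase, had 37.1 and 42.4 CPM with TGFβ1, 27.6, 31.7 and 31.8 CPM with BMP2, and 36.2 and 40.3 CPM with vehicle. The TGFβ1 and vehicle libraries overlapped and the 3 BMP2 libraries were lowest. Neither ligand passed the test against vehicle: the log2 difference was 0.05 with TGFβ1 (SE 0.13, edgeR adjusted p = 0.755) and −0.34 with BMP2 (SE 0.12, edgeR adjusted p = 0.114), and after the offset it was 0.02 and −0.34 (edgeR adjusted p = 0.924 and 0.0958). TGFβ1 over BMP2 gave 0.39 (SE 0.12, edgeR adjusted p = 0.0163; 0.35 and adjusted p = 0.0231 after the offset), and that call did not hold without TGFβ1 replicate 3 (0.30) or with DESeq2 (0.37).

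Vkorc1, the epoxide reductase, had 1386 and 1538 CPM with TGFβ1, 70.9, 84.2 and 90.9 CPM with BMP2, and 90.7 and 85.2 CPM with vehicle. Both TGFβ1 libraries were far above all others, and BMP2 and vehicle overlapped. It had the largest log2 fold change of the 5 with TGFβ1 against vehicle, 4.06 (SE 0.17, edgeR adjusted p = 1.76e-08), and 109 of the 674 genes of its length class exceeded it. After the offset 1.39 remained (SE 0.20, edgeR adjusted p = 1.70e-04), a 2.62-fold difference in place of 16.6-fold. On that scale the class median was 0.13 and 97 of the 674 genes exceeded Vkorc1. With BMP2 the difference was −0.10 (SE 0.14, edgeR adjusted p = 0.699), and −0.06 after the offset (SE 0.18, edgeR adjusted p = 0.882). TGFβ1 over BMP2 was 4.16 (SE 0.14, edgeR adjusted p = 2.98e-09) as measured and 1.45 (SE 0.18, edgeR adjusted p = 3.46e-05) after the offset. In that comparison 4 of the 5 genes were higher with TGFβ1 (33.3% of all tested genes were) and none was lower (28.1%), the ranges of 4 of the 5 did not overlap (73.7% of all genes), and after the offset 4 were higher (28.4%) and 1 lower (27.1%). In either direction 61.4% of all genes were called as measured and 55.5% after the offset.

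Per kilobase the 2 enzymes differed in level: Vkorc1 had 1955 ± 144 CPM per kb with TGFβ1 (SD, n = 2), 109.6 ± 13.6 with BMP2 (SD, n = 3) and 118 ± 5.20 with vehicle (SD, n = 2). Ggcx had 13.6 ± 1.28, 10.4 ± 0.812 and 13.1 ± 0.983 CPM per kb in the same groups. Per length the reductase value was above the carboxylase value in every group, with the level of Vkorc1 uncertain as stated above; whether a dependence of counts on transcript length within a library enters this comparison was not tested.

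**Figure D3:**
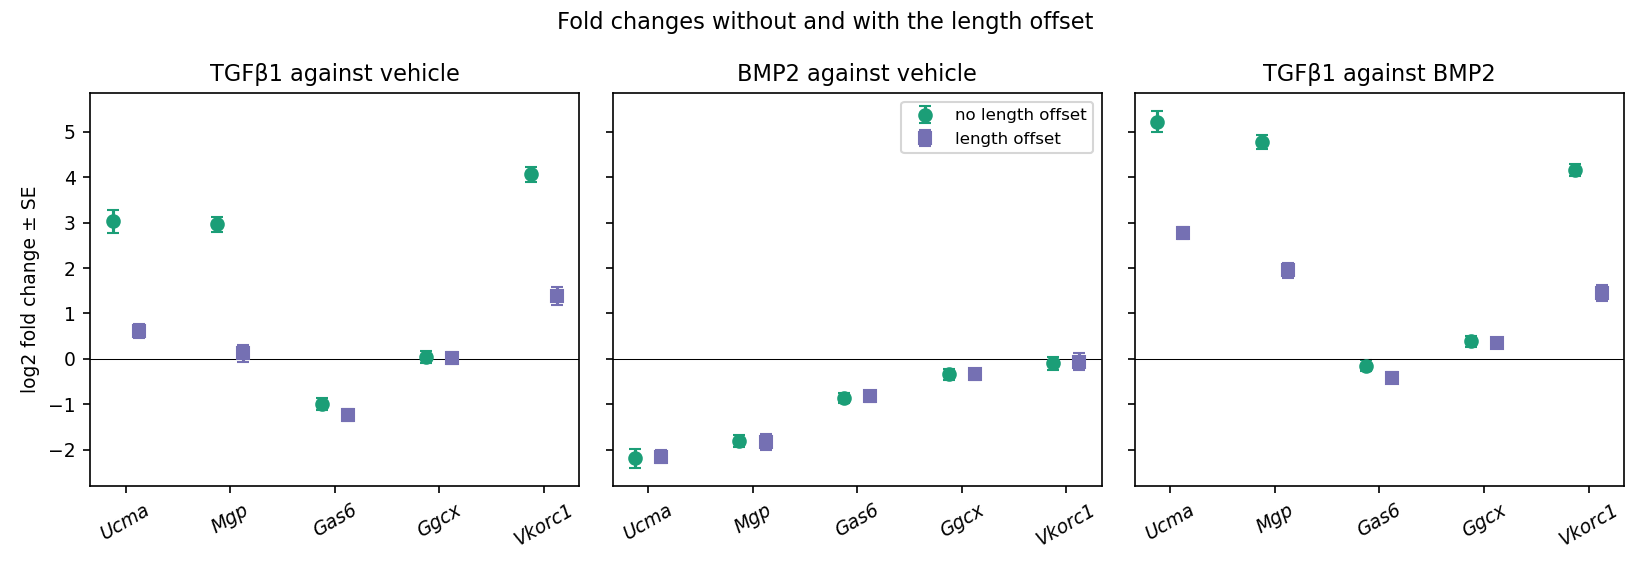
log2 fold change (± SE, edgeR) of each gene as measured (green circles) and after the length offset (purple squares) for TGFβ1 against vehicle, BMP2 against vehicle and TGFβ1 against BMP2. The offset moves the 3 short genes in both comparisons with TGFβ1 (Mgp to 0.12 against vehicle) and leaves the BMP2 values within 0.04 of those measured.

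The other genes of the vitamin K cycle and of Gla protein processing are described over a list of 5, all of them tested. With TGFβ1 against vehicle 3 rose and 1 fell (30.4% and 25.8% of all tested genes did), with a median log2 fold change of 0.55 over the list and −0.02 over all tested genes; with BMP2 none passed (11.5% of all tested genes did), with medians of 0.12 and 0.00. At an unadjusted p under 0.05, edgeR counted 2 of the 5 with BMP2, and DESeq2 called none. The share of all tested genes under that unadjusted threshold was not computed, so the count cannot be set against it. Their transcripts run from 1553 to 4332 nt, longer than those of Ucma, Mgp and Vkorc1.

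Nqo1, a quinone reductase that can reduce vitamin K, had 15.9 and 20.1 CPM with TGFβ1, 66.6, 67.1 and 61.3 CPM with BMP2, and 44.0 and 51.7 CPM with vehicle. The 3 groups did not overlap, and their order was the reverse of that of Ucma and Mgp. With TGFβ1 Nqo1 fell by 1.41 (log2, SE 0.15, edgeR adjusted p = 2.11e-05; −1.69 after the offset), while 0.44 with BMP2 did not pass (SE 0.13, edgeR adjusted p = 0.0571) and passed under 8 of its 22 alternatives. TGFβ1 over BMP2 gave −1.85 (SE 0.14, edgeR adjusted p = 1.15e-06). Furin, a protease that removes the propeptides of Gla proteins, rose by 0.85 with TGFβ1 (SE 0.15, edgeR adjusted p = 8.94e-04; 0.84 after the offset), with 127 and 142 CPM against 73.4 and 75.2 CPM with vehicle. Vkorc1l1, the paralog of Vkorc1, had 15.7 and 19.1 CPM with TGFβ1 and 10.6 and 13.2 CPM with vehicle, a rise of 0.55 (SE 0.20, edgeR adjusted p = 0.0406; 0.65 and adjusted p = 0.0165 after the offset). The call was lost in 9 of 22 alternatives and the direction in none, with 0.36 to 0.81 when 1 library was left out. Aifm2, which encodes another reductase of vitamin K, rose by 0.72 (SE 0.25, edgeR adjusted p = 0.0301; 0.62 and adjusted p = 0.0517 after the offset). Calu, whose product calumenin binds and inhibits the carboxylase, gave 0.22 with TGFβ1, which did not pass (SE 0.12, edgeR adjusted p = 0.137), and 0.37 after the offset, which did (SE 0.12, edgeR adjusted p = 0.0228); 7 of 22 alternatives called it. After the offset Calu was also called for TGFβ1 over BMP2 (0.28, edgeR adjusted p = 0.0440), where 0.10 as measured was not (edgeR adjusted p = 0.460).

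All 3 receptors of GAS6 were tested, and they differed from each other. Mertk had 5.59 and 5.04 CPM with TGFβ1, 9.61, 11.4 and 9.59 CPM with BMP2, and 15.0 and 15.7 CPM with vehicle. No 2 groups overlapped, and vehicle was highest, as for Gas6. Mertk fell by 1.53 with TGFβ1 (log2, SE 0.17, edgeR adjusted p = 3.41e-05; −1.27 after the offset) and fell by 0.60 with BMP2 (SE 0.15, edgeR adjusted p = 0.0284). The offset left −0.58 with BMP2, still called, and with 1 library left out the value stayed at −0.67 to −0.52, though 11 of 22 alternatives lost the call. Axl had 14.0 and 14.0 CPM with TGFβ1, 4.55, 6.76 and 5.08 CPM with BMP2, and 10.8 and 13.2 CPM with vehicle. The BMP2 libraries were lowest: Axl fell by 1.16 with BMP2 (SE 0.19, edgeR adjusted p = 0.00347), a call lost without vehicle replicate 2 (−1.01, edgeR adjusted p = 0.0586) and kept after the offset (−1.09, edgeR adjusted p = 0.00385), and with TGFβ1 its difference from vehicle was 0.22 (SE 0.19, edgeR adjusted p = 0.354). TGFβ1 over BMP2 gave 1.38 for Axl (SE 0.18, edgeR adjusted p = 7.95e-05) and −0.93 for Mertk (SE 0.16, edgeR adjusted p = 5.47e-04). Tyro3 did not pass against vehicle, at 0.03 with TGFβ1 (SE 0.21, edgeR adjusted p = 0.920) and 0.38 with BMP2 (SE 0.19, edgeR adjusted p = 0.256). For TGFβ1 over BMP2 Tyro3 gave −0.36 as measured (SE 0.18, edgeR adjusted p = 0.112) and −0.47 after the offset, which passed (SE 0.16, edgeR adjusted p = 0.0293).

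Of 14 other Gla protein genes only 5 passed the filter on low counts. The coagulation genes Proc, F9 and F10 had 0 counts in all 7 libraries. F2, F7 and Proz were close to 0, and the clotting proteins they encode are made by the liver. Pros1, which encodes protein S, a clotting cofactor that also binds TYRO3 and MERTK, had 30.2 and 31.5 CPM with TGFβ1, 38.1, 38.3 and 34.0 CPM with BMP2, and 32.4 and 38.0 CPM with vehicle, and it passed in none of the 3 comparisons. The transmembrane Gla protein gene Prrg2 rose by 1.32 with TGFβ1 (log2, SE 0.20, edgeR adjusted p = 2.74e-04; 0.79 after the offset), and its relative Prrg1 fell by 0.78 (SE 0.22, edgeR adjusted p = 0.0106), a call lost after the offset (−0.02, edgeR adjusted p = 0.945). None of the 5 passed with BMP2 against vehicle by edgeR as measured (11.5% of all tested genes did), and DESeq2 called none. Prrg1 and Prrg2 each stood at 0.54 there (edgeR adjusted p = 0.0939 and 0.111). By edgeR 3 of the 5 had an unadjusted p under 0.05, a threshold at which the share of all tested genes was not computed. After the offset Prrg2 passed with BMP2 (0.60, SE 0.17, edgeR adjusted p = 0.0460). For TGFβ1 over BMP2 Prrg2 passed as measured (0.78, edgeR adjusted p = 0.00205) and not after the offset (0.20, edgeR adjusted p = 0.265).

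Osteocalcin, the Gla protein of bone, is encoded by Bglap and Bglap2, near-identical neighbours whose reads the counting could split, so the level of each is uncertain. Bglap had 26.8 and 31.2 CPM with TGFβ1, 66.9, 24.0 and 27.9 CPM with BMP2, and 27.0 and 25.7 CPM with vehicle. BMP2 replicate 1 stood above the other 6 libraries, for Bglap2 as well (38.5 CPM, against 8.96 to 19.5 in the others). Neither gene passed as measured, with TGFβ1 (0.14 and 0.76) or with BMP2 (0.60 and 1.05), and without BMP2 replicate 1 Bglap gave −0.02 with BMP2. With no filter on low counts both passed with BMP2, at 0.62 (SE 0.15, edgeR adjusted p = 0.00179) and 1.06 (SE 0.18, edgeR adjusted p = 3.07e-07), and Bglap2 also with TGFβ1, at 0.72 (SE 0.19). Bglap2 further passed with TGFβ1 in a fit of only the libraries compared (0.75, edgeR adjusted p = 0.0109). It passed without BMP2 replicate 1 as well (0.76, edgeR adjusted p = 0.00409). After the length offset both fell with TGFβ1, at −3.01 (SE 0.29, edgeR adjusted p = 7.65e-06) and −2.38 (SE 0.41, edgeR adjusted p = 5.30e-04); their transcripts of 440 and 471 nt are shorter than that of Mgp, and they did not share the rise of their length class. For TGFβ1 over BMP2 the offset likewise gave −3.46 and −3.28, both called, where −0.47 and −0.29 as measured were not. Without BMP2 replicate 1 and without the offset these turned to 0.15 for Bglap, not called, and 0.52 for Bglap2, which passed (edgeR adjusted p = 0.0218).

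**Figure D4:**
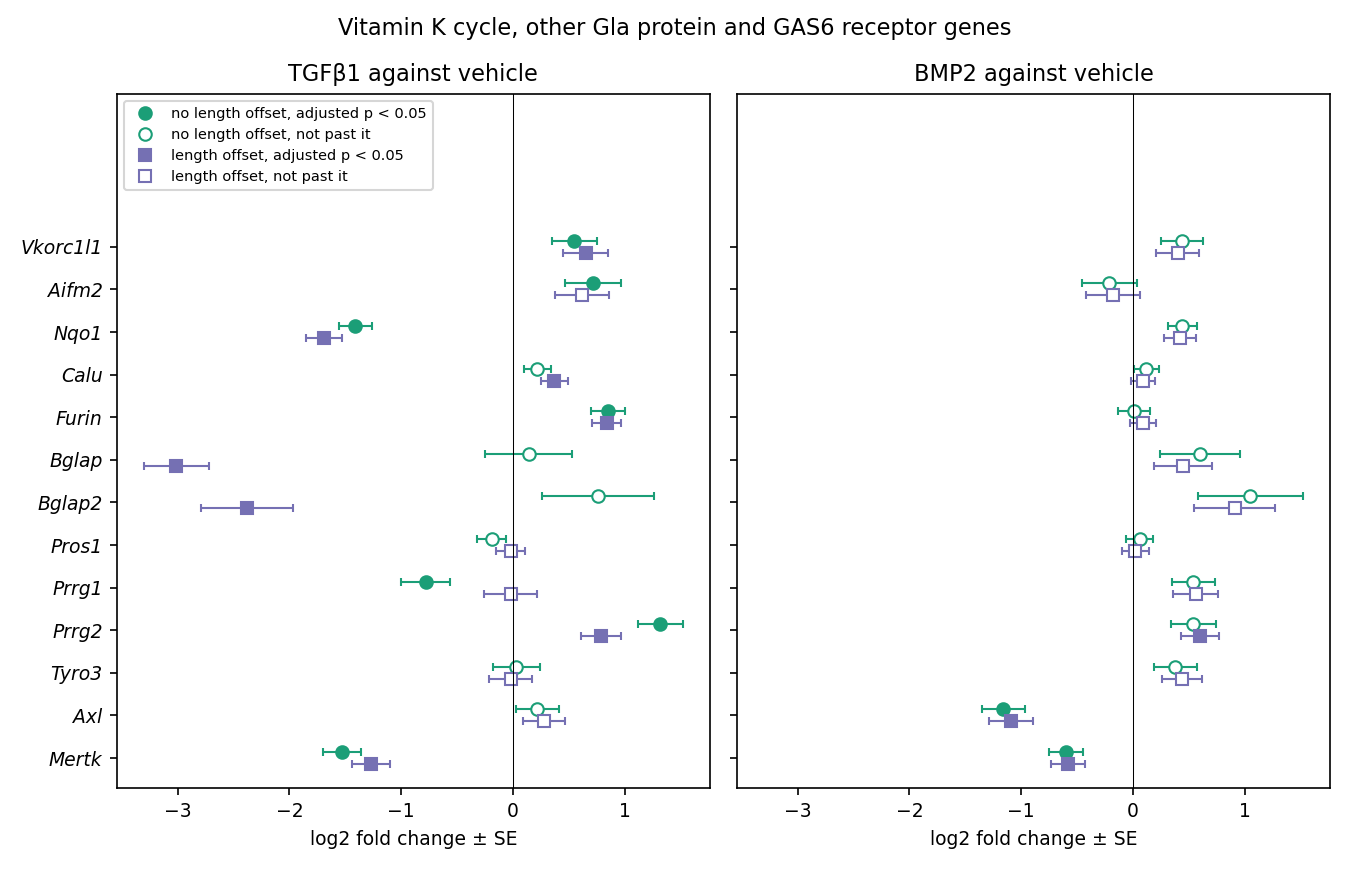
log2 fold change (± SE, edgeR) of the tested genes of the vitamin K cycle and Gla processing (Vkorc1l1 to Furin), the other Gla proteins (Bglap to Prrg2) and the GAS6 receptors (Tyro3 to Mertk), for TGFβ1 against vehicle (left) and BMP2 against vehicle (right), as measured (circles) and after the length offset (squares); filled symbols have an adjusted p under 0.05. Nqo1 and Mertk lie on the low side with TGFβ1, Axl and Mertk on the low side with BMP2, and the offset moves Bglap and Bglap2 to −3.01 and −2.38.

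The genes whose levels over the 7 libraries came closest to each of the 5 were found by the root mean square difference of log2 CPM, centred on the gene's mean. Candidates were 9712 other tested genes whose mean log2 CPM reached 2 (9709 after the length offset, for which a known length was needed). Names of clones, predicted genes, pseudogenes and mitochondrial genes were left out. The nearest to Ucma were Mgp (0.33), Gchfr (0.33) and Medag (0.44), and the nearest to Mgp were Medag (0.20), Ucma (0.33) and Gchfr (0.33). Medag has a transcript of 2953 nt, while that of Gchfr has 645 nt. The nearest to Gas6 were Itpr1 (0.08), Ptgis (0.10) and Gpsm2 (0.11), and the nearest to Ggcx were Ick (0.06), Fam168a (0.06) and Fam234a (0.07). For Vkorc1 they were Mien1 (0.05), the ribosomal protein gene Rps14 (0.06) and Polr2f (0.08), all with transcripts between 747 and 885 nt. After the length offset the nearest to Ucma were Nrp2 (0.23), Gxylt2 (0.25) and Sfrp4 (0.29), and to Mgp the collagenase gene Mmp13 (0.19), Ralgds (0.22) and Efnb2 (0.23), so Ucma and Mgp no longer named each other. Mien1 (0.05) and Rps14 (0.06) stayed the nearest to Vkorc1 on that scale. These are descriptions over 7 libraries in 3 groups that all of the genes share.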

How the data were processed

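The data are raw counts per gene name from bulk RNA sequencing. Per the submitters' processing notes, the tools included DESeq2, featureCounts, Subread, STAR 2.4.2a and cutadapt, and the build was mm10; no source used here gives their roles, the annotation, the strand setting or the treatment of shared or multi-mapped reads. The counts deposited by the authors are whole numbers that were not normalised, with totals of 6747997 to 18047765 per library, which limit the precision for low genes. The deposited file also has another column, a gene length, used only where stated.

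Tests used edgeR 4.0.16 (R 4.3.3). After filterByExpr by group (13367 genes kept) and TMM scaling, 1 quasi-likelihood model with the 3 groups as terms was fitted to all 7 libraries (4 residual degrees of freedom, common biological coefficient of variation 0.133). They were 2-sided, p-values were adjusted by Benjamini-Hochberg over the genes kept, and 0.05 was the threshold; log2 fold changes are given with SE. CPM use TMM-scaled library sizes. The design has no batch label.

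Gene names were matched to GENCODE M21 (mm10) for position and for the principal transcript's length and GC; 13229 of the tested genes (98.97%) had both. For the length offset, each gene's log2 CPM (prior count 1) was taken as the deviation from its mean over the libraries fitted. These deviations were smoothed by lowess within each library, first against length (span 0.15) and next against GC (span 0.3, 3 iterations each). The trends entered the edgeR model as offsets (coefficient of variation 0.121), so only differences in trend between libraries were removed. Each fit was tried on 1 simulated comparison: BMP2 without the offset, and TGFβ1 with an imposed length trend and the offset. In each, 100 genes were changed by 1 and 100 by 2 on the log2 scale, far fewer than were called in the data. Changes of 2 were recovered for 99.0 and 97.0% of the genes, and changes of 1 for 89.0 and 85.0%. The imposed trend was the same for all genes of the same length and in both TGFβ1 libraries. In the data, fold changes of genes of up to 750 nt had quartiles of 1.28 and 3.74 with TGFβ1 against vehicle. The simulation lacked that scatter, so its recovery under the offset does not carry over to single short genes. Whether the offset separates the trend from the treatment in the data was not tested. DESeq2 1.42.0 was run as an alternative, as were other scalings, no filter, the replicate number as a block and each library left out in turn; 3 variants of the offset were added after seeing the data. All 5 genes are described in every comparison, list genes are named where they passed (1 gene of the vitamin K list is not reported here and is left out of its counts), and nearest genes are the 3 with the smallest difference. The 5 genes, the lists and these rules were chosen with earlier results of these data known.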

Additional observations from a re-analysis of the deposited data

How the results depend on the processing

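Over 25 alternatives in each of 3 comparisons, the 5 genes kept direction and call in 342 of 375 values. The exceptions were as follows, and their causes were not tested. For Mgp with TGFβ1 against vehicle the length offset gave 0.12, with the replicate block as well 0.07, without the GC step 0.16 and with a wider span 0.22, none of them called, and leaving out 1 library gave 0.00 to 3.00 over fits with and without the offset. For Gas6 with TGFβ1 against BMP2 the offset gave −0.41, on deposited lengths −0.61 and with a wider span −0.39, all called, scaling on long transcripts gave 0.04, and leaving out 1 library gave −0.46 to −0.10. Ggcx with TGFβ1 against BMP2 lost its call with no filter (0.33), DESeq2 (0.37) and the offset on deposited lengths (0.26), and ranged from 0.27 to 0.49 with 1 library left out; against vehicle it turned to −0.06 with the offset on deposited lengths and ranged from −0.07 to 0.15. Vkorc1 with BMP2 against vehicle ranged from −0.18 to 0.08.

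The number of genes called with BMP2 against vehicle was 771 with the replicate block and 900 with block and offset, against 1535, and 557 to 1803 with 1 library left out. Whether replicate numbers pair the libraries could not be decided. Correlations of deviations from the group means ran from −0.139 to −0.001 between same-numbered libraries. In a group of 2 libraries the deviations mirror each other, so each value returns with the opposite sign for the other library. The replicate block gave 6086 calls for TGFβ1 against vehicle and 7287 for TGFβ1 against BMP2 (7517 and 8206 without it). It changed no call of the 5 genes other than under the offset. Of the genes called with TGFβ1 against BMP2 65.1% were higher with scaling on long transcripts, against 54.3%, and the median of all genes moved by 0.19. With the deposited gene length the vehicle levels per kilobase were 817 CPM for Mgp, 11.8 for Ggcx and 105 for Vkorc1.

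Among list genes 705 of 858 values kept direction and call. With TGFβ1 against vehicle, scaling on long transcripts turned Pros1 to 0.00, the offset turned Bglap to −3.01 (−3.12 with the block), Bglap2 to −2.38 (−2.40) and Tyro3 to −0.02 (−0.10), the offset with block turned Pros1 to 0.08, and Tyro3 gave −0.01 with no filter and −0.07 with the block. With BMP2 against vehicle the block gave −0.01 for Furin, and with TGFβ1 against BMP2 the offset with block gave 0.01 for Pros1. With 1 library left out, values with TGFβ1 against vehicle ran from −3.18 to 0.25 for Bglap, −2.62 to 0.96 for Bglap2, −0.35 to 0.10 for Pros1, −0.88 to 0.16 for Prrg1 and −0.13 to 0.16 for Tyro3. With BMP2 against vehicle they ran from −0.47 to 0.13 for Aifm2, −0.14 to 0.15 for Furin, −0.02 to 0.85 for Bglap and −0.08 to 0.19 for Pros1. With TGFβ1 against BMP2 they ran from −0.03 to 0.42 for Vkorc1l1, −3.67 to 0.15 for Bglap, −3.57 to 0.52 for Bglap2 and −0.31 to 0.00 for Pros1.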
